A study of Mus musculus with 8 samples.

Results

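The genes described here are 10 surface, filament and matrix genes used as markers of fibroblasts: Thy1, Cd44, Pdgfra, Pdgfrb and Fap at the cell surface, Vim and Acta2 in the cytoskeleton, S100a4 among calcium-binding proteins, and Fn1 and Dcn in the extracellular matrix. They were taken by gene name, 10 of 26220 mouse genes with a curated RefSeq transcript, from 10 lists of promoter regions and 6 peak lists. The lists come from hMeDIP-seq, in which an antibody pulls down DNA fragments carrying 5-hydroxymethylcytosine (5hmC) and the fragments are sequenced. Each of the 6 hMeDIP libraries was the only one of its group. The groups were neurons induced from mouse embryonic fibroblasts (iNs) at 1, 3, 5 and 7 dpi (an abbreviation the labels do not spell out), primary neurons cultured from the hippocampus of 1-day-old pups, and the mouse embryonic fibroblasts themselves (MEFs), isolated from E13.5 embryos. All cells were of the ICR strain and carried the same label of passages 3 to 5, primary neurons included. The labels used here do not name the factors that induced the neurons, the share of cells that converted, or whether animals were pooled. The 2 input libraries, 1 of MEFs and 1 labelled as a mix, were not analysed on their own.

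5hmC is made when TET enzymes oxidise 5-methylcytosine, is found mostly where cytosine is followed by guanine (CG), and is plentiful in the DNA of mature neurons. CD44 is the hyaluronan receptor, THY1 an adhesion protein of fibroblasts that neurons also carry, PDGFRA and PDGFRB the receptor tyrosine kinases for platelet-derived growth factors, and FAP a membrane serine protease of activated fibroblasts. Vimentin (Vim) is the intermediate filament of mesenchymal cells and smooth muscle actin (Acta2) the contractile actin of myofibroblasts. Fibronectin (Fn1) and decorin (Dcn) are secreted into the matrix. hMeDIP reads show where the mark lies and not whether a gene is expressed, so the labelled cell types could not be checked against marker expression. A lower share of cells with the mark and less of it per cell cannot be told apart in bulk DNA.

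The promoter lists hold, for each of the 5 comparisons with MEFs, regions within 2000 bp of a transcription start site (TSS) where the compared library had more reads than the MEF library (called hyper by the authors) or fewer (hypo). A region outside both lists has no value in them, so "not listed" does not mean 0 reads. The deposited values are reads times 1 factor per library, and whole reads were recovered from them. After that scaling a read of an iN or primary neuron library was worth 1.75 to 1.8 MEF reads, and the folds below include it. Hyper regions started at 9 reads in the higher library, with a median of 10 or 11, and hypo regions at 15, with a median of 23 or 24, so few reads lie behind any single value below. With 1 library per group no difference could be tested against replicate spread, and the 95% intervals below are exact Poisson intervals that cover counting error only. Where a library had 0 reads, 3 were put in their place, and such a fold reads "at least". The bound takes the MEF or neuronal reads of the other side as exact, so the interval's own lower limit is smaller, 8.08-fold where S100a4 at 3 dpi is given below as at least 10.3-fold. The peak lists are very unequal, with 262, 1238, 1100 and 1579 peaks at 1, 3, 5 and 7 dpi and 549 in primary neurons, against 176853 in MEFs. The same MEF library is on the other side of all 5 comparisons.

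The regions listed closest to a start site were those of Cd44 and S100a4, both with fewer reads than in MEFs in all 5 comparisons, and both reach into the RefSeq promoter window of the gene (build GRCm38.p6, the assembly of mm10), which ends shortly after the start site. These 2 sequences are shown because they are the only members' windows at hand that a listed region overlaps. Capitals mark the bases inside the longest hypo extent listed, 5′ to 3′ on the gene's own strand, at chr2:102901616-102901915 on the minus strand for Cd44 and chr3:90603520-90603819 on the plus strand for S100a4.
Cd44: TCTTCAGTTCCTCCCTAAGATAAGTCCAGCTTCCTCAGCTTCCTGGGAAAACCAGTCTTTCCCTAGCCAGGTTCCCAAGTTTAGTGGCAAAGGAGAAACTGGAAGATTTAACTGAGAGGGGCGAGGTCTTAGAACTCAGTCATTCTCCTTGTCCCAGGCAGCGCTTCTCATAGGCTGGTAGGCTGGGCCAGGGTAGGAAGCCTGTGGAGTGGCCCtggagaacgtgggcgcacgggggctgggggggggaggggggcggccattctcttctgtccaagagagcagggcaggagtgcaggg
S100a4: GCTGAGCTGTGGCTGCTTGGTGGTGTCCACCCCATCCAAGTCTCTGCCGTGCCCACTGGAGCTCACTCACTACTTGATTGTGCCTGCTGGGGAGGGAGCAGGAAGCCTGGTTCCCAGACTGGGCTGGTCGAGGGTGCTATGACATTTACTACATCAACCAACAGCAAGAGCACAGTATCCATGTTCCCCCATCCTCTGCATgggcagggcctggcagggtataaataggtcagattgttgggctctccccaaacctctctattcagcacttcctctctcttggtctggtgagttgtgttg
Of the 300 bases, 215 lay in the listed region for Cd44 and 201 for S100a4, with 2 CG in the listed part of each. The whole Cd44 window held 6 CG, 1 GGGCGG on either strand (the core bound by SP1) and no TATAAA. The S100a4 window held 2 CG, with 85.9% of all windows at least as rich, no GGGCGG and 1 TATAAA. Windows were also at hand for Vim with 11 CG, Acta2 with 6 and Pdgfra with 5, none of them touched by a listed region, and Vim held 1 TATAAA. Over all 32851 windows the median was 7 CG, 94.6% held a CG, 35.7% GGGCGG and 13.6% TATAAA.

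The same 5 members had fewer reads than MEFs in every comparison: Cd44, S100a4, Fn1, Vim and Pdgfra were in the hypo list at 1, 3, 5 and 7 dpi and in primary neurons. That is 5 of 10 members each time. Recurrence was common among all genes: 5321, without symbols of predicted genes, were hypo in all 5 comparisons. Each hypo list held 8934 to 9642 genes, and the 5 comparisons share 1 MEF library. Over all genes the share in the hypo list was 36.8% at 1 dpi, 34.3% at 3 dpi, 34.1% at 5 dpi, 34.3% at 7 dpi and 34.8% in primary neurons. The hyper lists held 3 members at 1 dpi (Thy1, Cd44 and Acta2), beside 11.7% of all genes. They held 2 at 3 dpi (Thy1 and Cd44), beside 10.9% of all genes, and 1 at 5 dpi (Vim), beside 16.9%. At 7 dpi they held 3 (Thy1, Cd44 and Pdgfrb), beside 7.44%, and in primary neurons 1 (Cd44), beside 7.43%. With 10 members, 1 gene is 10 percentage points, and these counts were not tested against the shares of all genes. Fap and Dcn were in no promoter list.

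**Figure D1:**
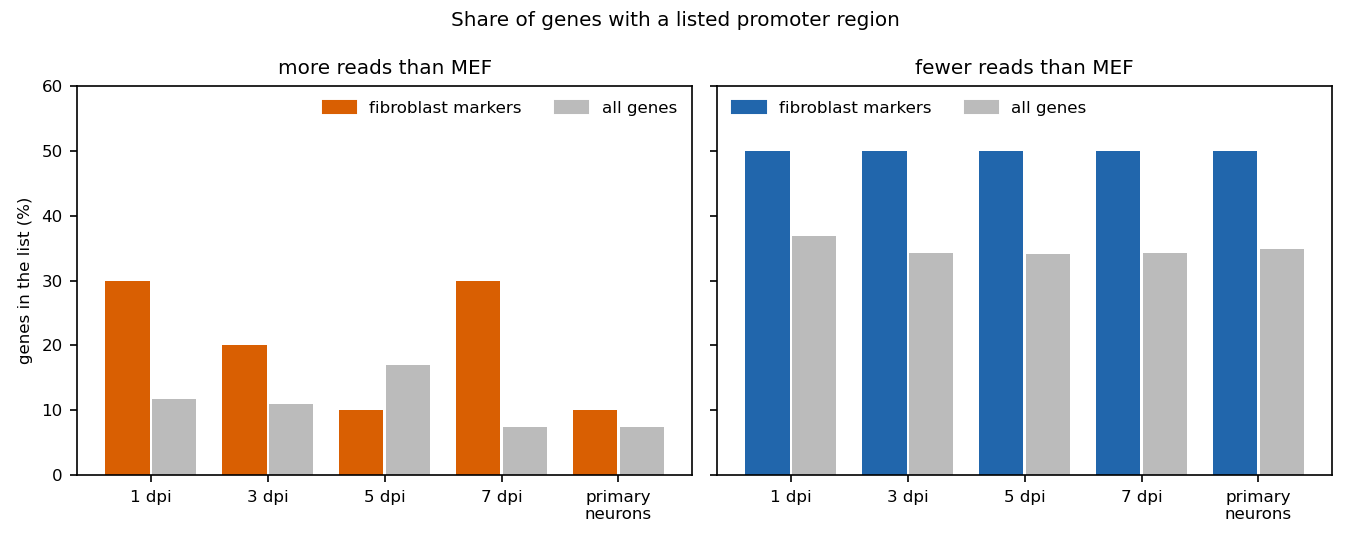
Percentage of the 10 fibroblast markers (coloured bars) and of all 26220 genes (grey bars) with a listed promoter region, by compared library, for more reads than MEF (left panel) and fewer (right panel). The markers stand at 50% in every hypo list, against 34.1% to 36.8% of all genes, and at 10% to 30% in the hyper lists.

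The 47 listed regions of the members, 13 hyper and 34 hypo, fell at 15 places, 8 hyper and 7 hypo, since regions of different comparisons overlapped. Of the 7 hypo places 6 were listed in all 5 comparisons, which share 1 MEF library, and the remaining 1, in Pdgfra, in 4. Of the 8 hyper places none was listed in more than 3. How often the places of other genes recur is not given here, so this recurrence cannot be called particular to the members. The compared library had 0 reads in 18 of the 34 hypo regions, 1 to 3 in 13 and 4 or 5 in 3. The MEF library had 0 reads in 11 of the 13 hyper regions and 1 in the other two. In the authors' deposited table the q-value of these regions ran from 6.35e-11 (S100a4 at 3 dpi) to 0.00113 (Pdgfra at 7 dpi), and it compares 1 library with 1 library.

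**Figure D2:**
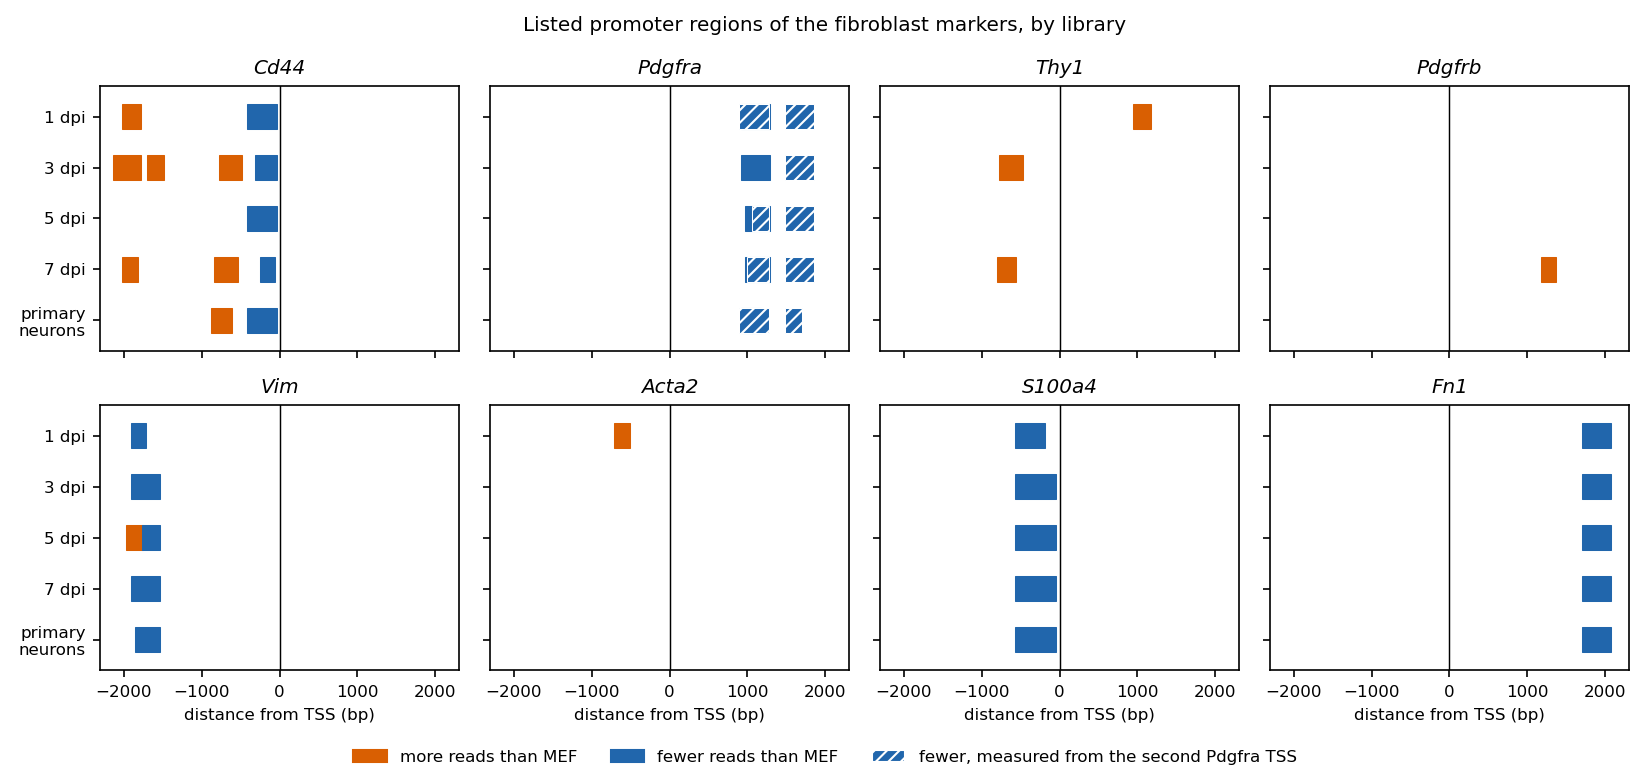
Extent of every listed promoter region of the 8 members that have one, in bp from the TSS used in the lists (upstream is negative), with 1 row per compared library, more reads than MEF in orange and fewer in blue. Blue bars recur at the same place in all 5 rows for Cd44, Vim, S100a4 and Fn1. They also do so for Pdgfra at 911 to 1290 bp (not hatched) and at 1476 to 1855 bp (hatched). Orange bars of Cd44 lie upstream of the blue one. Hatched Pdgfra bars are measured from the second Pdgfra start site.

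Among the surface genes, Cd44 was listed in both directions within 1 promoter. Immediately upstream of its start (chr2:102901701-102902080, 415 to 36 bp upstream) it had 1 read at 1 dpi, 2 at 3 dpi, 0 at 5 dpi, 2 at 7 dpi and 0 in primary neurons, against 27 in MEFs. All 5 libraries were low beside the MEF library, which holds by construction for any place in all 5 hypo lists. The scaled difference was 15.2-fold at 1 dpi (95% interval 2.5 to 622) and 7.71-fold at 3 and 7 dpi (1.94 to 66.9), and at least 5.14-fold at 5 dpi and at least 5-fold in primary neurons. The extents varied, and at 7 dpi the region began 255 bp and ended 56 bp upstream. No MEF peak overlapped this place.

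Further upstream the direction was the opposite. At 875 to 476 bp upstream, Cd44 had 12 reads at 3 dpi, 13 at 7 dpi and 9 in primary neurons, against 0 in MEFs, at least 7-fold, at least 7.58-fold and at least 5.4-fold more. At 2135 to 1776 bp upstream it had 12 reads at 1 dpi, 24 at 3 dpi and 10 at 7 dpi, against 1 MEF read in the extents of 1 and 3 dpi and 0 in that of 7 dpi. The ratio was 21.3-fold at 1 dpi (3.16 to 912), 42-fold at 3 dpi (6.85 to 1727) and at least 5.83-fold at 7 dpi. The 24 reads at 3 dpi were the most in any member's hyper region, and 3.18% of all hyper regions of that comparison had as many or more. A place between them, 1695 to 1476 bp upstream, was listed at 3 dpi only, with 10 reads against 0 in MEFs. At 5 dpi none of these upstream places was listed. More and fewer reads within 1 promoter were common: 47%, 42.5%, 41%, 43.8% and 45.3% of all genes in the hyper lists of 1, 3, 5 and 7 dpi and primary neurons had a hypo region too. The overlap was 9.5% to 20.4% of the genes in the hypo lists.

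Pdgfra was listed as lower than MEFs at 3 places inside the gene, downstream of 2 alternative start sites. At the first (chr5:75153201-75153580, 911 to 1290 bp after the first start site) all 5 libraries had 0 reads, against 19 in MEFs, at least 3.52-fold to at least 3.62-fold fewer. At the second (chr5:75157061-75157440, 896 to 1275 bp after the other start site) there were 0 reads at 1 dpi, 1 at 5 dpi, 1 at 7 dpi and 0 in primary neurons, against 23 in MEFs, and no listed region at 3 dpi. The third (chr5:75157641-75158020) had 2, 4, 4 and 5 reads at 1, 3, 5 and 7 dpi, against 38 in MEFs, and 0 in primary neurons in a shorter extent, against 29 in MEFs. The 5 reads at 7 dpi were the most in any member's hypo region. The difference at the third place was 10.7-fold at 1 dpi (2.76 to 91.4), 5.43-fold at 3 and 5 dpi (1.95 to 20.9) and 4.34-fold at 7 dpi (1.71 to 14.1), intervals that overlap one another. Each of the last 2 places lay on a MEF promoter peak, of 4.66-fold and 5.52-fold enrichment.

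Thy1 and Pdgfrb had hyper regions only. Thy1 had 11 reads at 1 dpi inside the gene (chr9:44044321-44044560), and upstream of it (chr9:44042581-44042920, 802 to 463 bp before the start) 11 at 3 dpi and 9 at 7 dpi, against 0 in MEFs each time. The excess was at least 6.52-fold, at least 6.42-fold and at least 5.25-fold. The 1 dpi place and the upstream place did not overlap, and Thy1 was not listed at 5 dpi or in primary neurons. Pdgfrb had 9 reads at 7 dpi, 1172 to 1371 bp after its start, against 0 in MEFs, at least 5.25-fold more. A count of 9 is the lowest in any hyper list, so these 2 genes sit at or near its limit. Fap, the fifth surface gene, was in neither list.

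In the cytoskeleton, Vim was low at a place well upstream of its start (chr2:13572401-13572780, 1909 to 1530 bp upstream). Each of the 5 libraries had 0 reads in its own listed extent, against 18 in MEFs. The extents varied, and at 5 dpi the hypo region covered only 1769 to 1530 bp upstream. The bound ran from at least 3.33-fold fewer in primary neurons to at least 3.43-fold at 3, 5 and 7 dpi. At 5 dpi an adjoining region (chr2:13572341-13572560) was listed in the other direction, with 9 reads, against 0 in MEFs, at least 5.25-fold more. It overlapped the hypo extent of the same comparison by 20 bp, that of primary neurons by 100 bp, and those of 1, 3 and 7 dpi by 160 bp. The same MEF library thus gave 18 reads in one extent and 0 in another that shares 160 bp with it. Over all hypo regions, 90.9% of 46790 pairs in which one extent lay inside a longer one had equal MEF reads, so a region's reads need not be spread over its whole extent. How the reads of a region were counted was not given in the sources used here. Acta2 was listed once, with 10 reads at 1 dpi 707 to 508 bp upstream (chr19:34255881-34256080), against 0 in MEFs, at least 5.93-fold more.

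S100a4, a calcium-binding protein also known as fibroblast-specific protein, had the most MEF reads of any member region. Just upstream of its start (chr3:90603201-90603720, 568 to 49 bp upstream) it had 3 reads at 1 dpi, 0 at 3 dpi, 2 at 5 dpi, 2 at 7 dpi and 2 in primary neurons, against 54 in MEFs. The difference was 10.1-fold at 1 dpi (3.29 to 50.6), at least 10.3-fold at 3 dpi, 15.4-fold at 5 and 7 dpi (4.07 to 131) and 15-fold in primary neurons (3.96 to 127). These intervals overlap one another. Between 3.39% and 3.57% of all hypo regions had as many MEF reads. The place lay on the only MEF peak assigned to S100a4, a promoter peak of 6.93-fold enrichment with 54 tags at its summit, 339 bp upstream of the start.

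Of the matrix genes, Fn1 was low at a place inside the gene (chr1:71651161-71651540, 1694 to 2073 bp after the start), with 0 reads at 1 dpi, 1 at 3 dpi, 1 at 5 dpi, 3 at 7 dpi and 0 in primary neurons, against 39 in MEFs. The extent was identical in all 5 comparisons. The difference was at least 7.31-fold at 1 dpi, 22.3-fold at 3 and 5 dpi (3.77 to 903), 7.43-fold at 7 dpi (2.36 to 37.6) and at least 7.22-fold in primary neurons. The place lay on a MEF gene body peak of 5.04-fold enrichment with 39 tags at its summit. Dcn was in no promoter list.

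**Figure D3:**
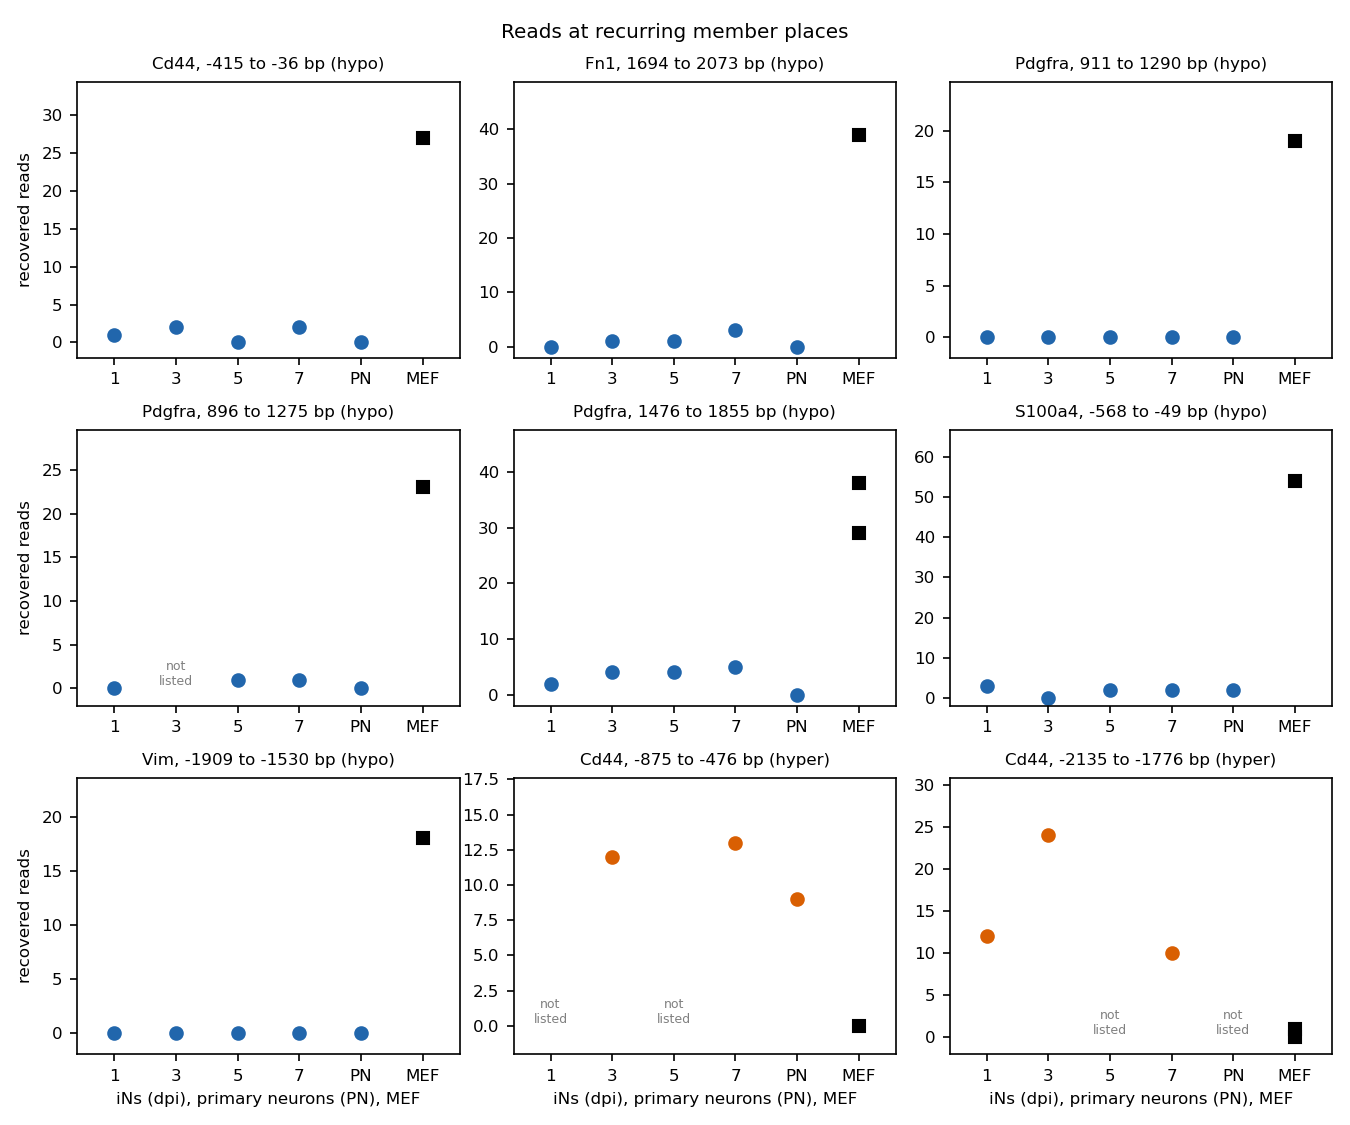
Recovered reads at the 7 hypo places and the 2 recurring Cd44 hyper places, as counted in the regions of that list, with iNs by dpi, then primary neurons (PN) and MEF (black squares, 2 where the listed extents gave 2 counts), before scaling. No iN or primary neuron library exceeds 5 reads in a region listed as hypo, against 18 to 54 in MEFs, and at the Cd44 hyper places 9 to 24 reads stand against 0 or 1 in MEFs.

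Set beside all listed regions, the members' hypo regions had a median log2 ratio of -2.87 at 1 dpi, -2.69 at 3 dpi, -2.44 at 5 dpi, -2.89 at 7 dpi and -2.32 for primary neurons, and all hypo regions -2.17, -2.28, -2.25, -2.31 and -2.15 in that order. The members' medians rest on 6 or 7 hypo regions of 5 genes per comparison, and Pdgfra gave more than 1 of them each time. The members' hyper regions, 1 to 4 per comparison, had medians of 2.70, 2.74, 2.39, 2.47 and 2.43, beside 2.57, 2.54, 2.54, 2.68 and 2.58 over all hyper regions. In these medians regions with 0 reads are held at the floor, so they are nearer to 0 than those with 1 read. Over hyper and hypo regions together the median log2 ratio was -1.91 at 1 dpi, -1.93 at 3 dpi, -1.78 at 5 dpi, -2.0 at 7 dpi and -1.96 for primary neurons. Relative to it, a ratio at least 1 log2 unit lower was left in 3 members at 1 dpi (Cd44, S100a4 and Pdgfra), 3 at 3 dpi (Cd44, S100a4 and Fn1) and 3 at 5 dpi (S100a4, Fn1 and Pdgfra). It was left in 2 at 7 dpi (S100a4 and Pdgfra) and in 1 in primary neurons (S100a4). The share of all genes left by the same cut is not given here, so these counts cannot be set against other genes. Which members are left depends on the floor, since 0 reads count as 3 but 1 read as 1: Fn1 with 0 reads at 1 dpi is not left, and with 1 read at 3 dpi it is.

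Most peaks assigned to the members were those of MEFs. All 10 members had a MEF peak, as 75.6% of all genes did. No member had one at 1 dpi, where 0.805% of all genes did. Vim was the 1 member with a peak at 3, 5 and 7 dpi, and also in primary neurons, where the shares of all genes were 3.86%, 3.41%, 4.71% and 1.62%. The lists differ in length as given above, and fold enrichments, which are the authors', were not compared between lists. The 71 MEF peaks of the members were 3 promoter, 18 gene body and 50 intergenic peaks, 70.4% intergenic beside 72.4% of all MEF peaks. Their median fold enrichment was 4.54, the same as over the whole list, and 64 of them were 480 bp long, which was the minimum in the lists.

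Pdgfra had 21 MEF peaks, of which 18 were intergenic, out to 209 kb beyond its start, and 7.49% of genes had as many. Vim followed with 11, all intergenic, then Cd44 and Thy1 with 9 each, Acta2 and Dcn with 5, Fn1 and Fap with 4, Pdgfrb with 2 and S100a4 with 1. The median was 5 over the members and 3 over all genes. The members' genes were also longer, with a median of 39.3 kb beside 14.3 kb, and per 100 kb they held 4.62 gene body MEF peaks, beside 3.87 over all genes. The highest enrichment was 9.2-fold, with 72 tags, 21.2 kb upstream of Cd44 (chr2:102922459-102923272). A Pdgfra peak 119 kb beyond its start had 8.83-fold with 71 tags. Within 10 kb of the start, 6 members had a MEF peak (Thy1, S100a4, Fn1, Vim, Pdgfra and Dcn). The share of all genes with a MEF peak that near is not given here. Fap and Dcn, without a listed promoter region, each had gene body MEF peaks, 3 in Fap and 4 in Dcn.

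The peaks of Vim outside MEFs lay far from its promoter. At 3 dpi (chr2:13609638-13610162) and at 7 dpi (chr2:13609643-13610148) a peak stood 35.7 kb beyond the start, of 8.29-fold enrichment with 51 tags and 8.76-fold with 49 tags. A second peak at 7 dpi, of 3.52-fold, stood 33.9 kb beyond it. At 5 dpi (chr2:13665708-13666191) and in primary neurons (chr2:13665578-13666093) the peak stood 91.6 kb beyond the start, 6.34-fold in each list, inside the neighbouring gene St8sia6, a sialyltransferase, in RefSeq. MEF peaks overlapped the places at 35.7 and 91.6 kb, at chr2:13609897-13610376 with 53 tags and chr2:13665761-13666240 with 53 tags. No MEF peak assigned to Vim overlapped the second 7 dpi peak at 33.9 kb (chr2:13607854-13608565).

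**Figure D4:**
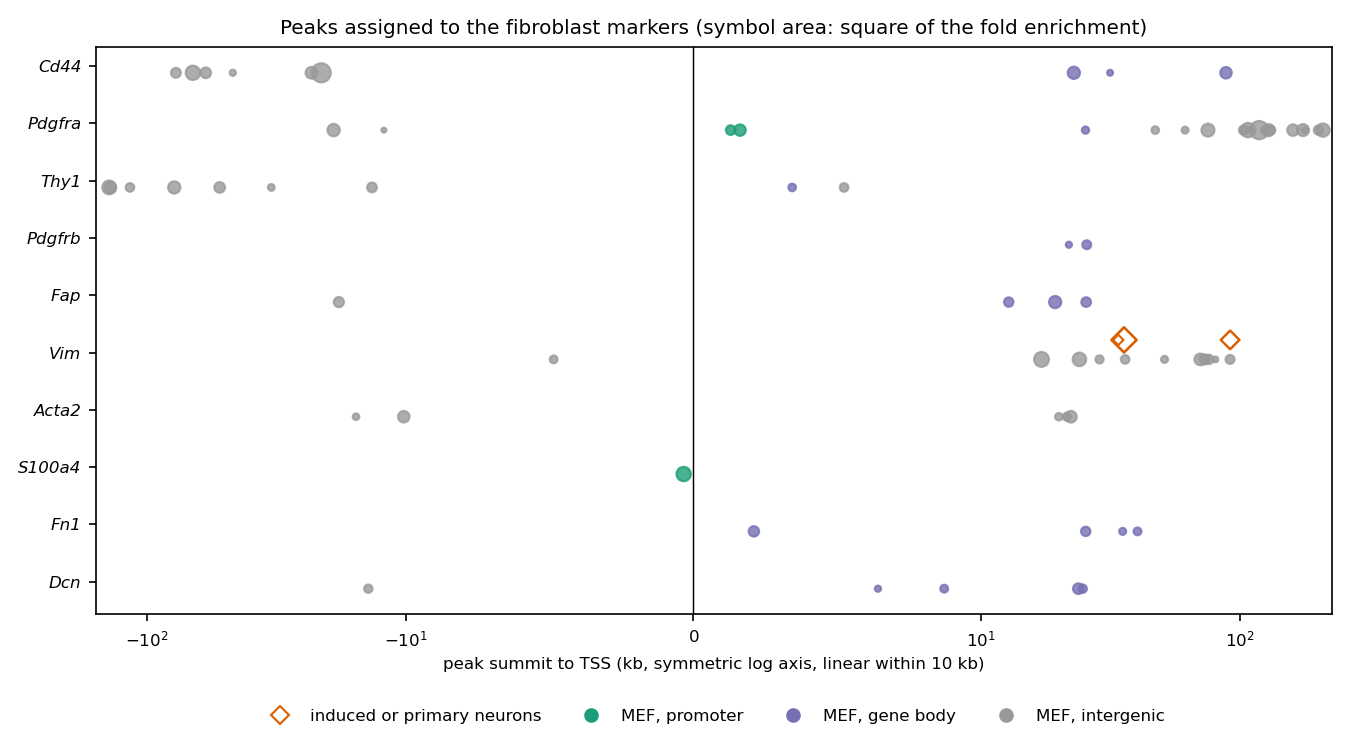
Peaks assigned to the 10 members by distance of the summit from the TSS, in kb on a symmetric log axis, with symbol area the square of the fold enrichment. Open diamonds are peaks of induced or primary neurons, those of 5 dpi and primary neurons lying on each other at 91.6 kb, and filled circles are MEF peaks by class. Diamonds appear for Vim only, and promoter peaks for Pdgfra and S100a4 only.

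Of the 7 hypo places, 4 lay on a MEF peak (S100a4, Fn1 and 2 of Pdgfra), and none of the 8 hyper places did. The lists and the MEF peaks rest on the same MEF library, and hypo regions start at 15 MEF reads. A contrast between hypo and hyper is therefore largely built in. Counted as regions, 4 of the members' 7 hypo regions overlapped a MEF peak in each comparison, but 3 of 6 at 3 dpi. Over all regions, 46.3% to 49.7% of hypo regions and 5.68% to 8.3% of hyper regions overlapped a MEF peak, depending on the comparison. No listed place of a member overlapped a peak of the library compared. Those lists hold only 262 to 1579 peaks, and the share over all regions is not given here. The lack of overlap therefore cannot be called particular to the members.

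Genes that work with the members, or are related to them by family, were listed in both directions too. Of 65 related genes in 7 lists, 29, 28, 29 and 26 were in the hypo lists of 1, 3, 5 and 7 dpi and 25 in that of primary neurons, or 44.6%, 43.1%, 44.6%, 40% and 38.5%. In the hyper lists there were 8, 5, 11, 8 and 9 of them, or 12.3%, 7.69%, 16.9%, 12.3% and 13.8%. Over all genes the share was 34.1% to 36.8% in the hypo lists and 7.43% to 16.9% in the hyper lists. The counts of related genes, here and list by list below, were not tested against these shares. Each related gene named below was hypo in all 5 comparisons and is shown only at that of its largest ratio. As 0 reads count as 3, this choice favours libraries with 1 read, so the library shown is not particular. For the PDGF receptors, 2 of the 4 ligand genes were among them. Pdgfc had 1 read at 5 dpi, against 25 in MEFs (14.3-fold, 2.34 to 587), and Pdgfd 0 reads at 5 dpi, against 20 in MEFs (at least 3.81-fold). For CD44 and fibronectin, whose list holds integrins and hyaluronan genes, 5 or 6 of 11 genes were hypo. Has2, a hyaluronan synthase, had 1 read at 5 dpi, against 41 in MEFs (23.4-fold, 3.98 to 948). Has1, another hyaluronan synthase, had 1 at 1 dpi, against 34 in MEFs, and Hmmr, a further hyaluronan receptor, 1 at 7 dpi, against 29 in MEFs.

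Beside Vim, 4 or 5 of 13 intermediate filament genes were hypo. The epithelial keratin Krt18 had 1 read at 5 dpi, against 38 in MEFs (21.7-fold, 3.67 to 880), the neurofilament Nefm 1 at 3 dpi, against 23 in MEFs, and the lamin Lmnb1 2 at 7 dpi, against 23 in MEFs. Of 11 actin and contractile genes 3 or 4 were hypo and 0 to 4 hyper, among them the smooth muscle actin Actg2, with 1 read at 5 dpi, against 29 in MEFs (16.6-fold, 2.75 to 677), and the myosin light chain Myl9, with 2 at 3 dpi, against 27 in MEFs. Of 11 S100 genes 2 to 5 were hypo, and S100b, a glial S100 protein, had 1 read at 3 dpi, against 30 in MEFs. S100a11 had 2 at 1 dpi, against 34 in MEFs. Of 9 proteoglycans related to decorin 3 or 4 were hypo. Epyc, a cartilage proteoglycan, had 1 read at 1 dpi, against 48 in MEFs (27-fold, 4.62 to 1088), while Omd and Prelp had 0 at 5 dpi, against 20 and 16 in MEFs. Of 6 prolyl peptidases related to FAP 4 were hypo in each comparison, beside 34.1% to 36.8% of all genes, although Fap itself was not. They included Dpp6, which in neurons is a potassium channel subunit, with 1 read in primary neurons, against 45 in MEFs (25-fold, 4.27 to 1009), Dpp10, with 1, against 44 in MEFs, and Prep, with 1, against 32 in MEFs. Has1, Nefm, Actg2, Myl9, S100a11, Epyc and Prelp were also in a hyper list in at least 1 comparison, so their values here show one direction of 2.

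Markers of other cell types were listed as well. Of 39 such markers, 38.5%, 30.8%, 33.3%, 41% and 33.3% were hypo in the 5 comparisons and 10.3%, 17.9%, 20.5%, 10.3% and 7.69% hyper. Over all genes 34.1% to 36.8% were hypo and 7.43% to 16.9% hyper. The marker lists hold 6 to 12 genes each, and their counts were not tested against these shares. A marker given below with fewer reads is shown only at the comparison of its largest ratio. Erg was hypo in 4 comparisons and the other markers so given in all 5. Of 12 pan-neuronal genes 4 or 5 were hypo and 0 to 2 hyper. Gap43, a growth cone protein, had 1 read in primary neurons, against 44 in MEFs (24.5-fold, 4.17 to 987), Syt1, a synaptic vesicle calcium sensor, 1 in primary neurons, against 31 in MEFs, and Ncam1 1 at 7 dpi, against 23 in MEFs. Of 7 astrocyte markers 2 or 3 were hypo, among them the water channel Aqp4, with 1 read at 7 dpi, against 30 in MEFs. Of 7 endothelial markers 2 to 4 were hypo and 0 to 3 hyper. Erg, a transcription factor, had 1 read at 1 dpi, against 35 in MEFs, and Pecam1 was in hyper lists in 4 comparisons and in hypo lists in 4. Gap43, Syt1, Ncam1, Aqp4 and Erg were likewise in a hyper list in at least 1 comparison. Of 6 microglia and blood markers 3 or 4 were hypo, among them Cx3cr1, with 1 read at 3 dpi, against 24 in MEFs, Csf1r, with 0 at 5 dpi, against 16 in MEFs, and Aif1, with 0 at 5 dpi, against 15 in MEFs. None of 7 skeletal muscle markers was hypo in any comparison, while Des and Myog, each with 9 reads at 3 dpi, and Myod1, with 9 at 5 dpi, were hyper against 0 in MEFs.

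The genes most like each member over the 5 comparisons were sought among 5321 genes that were hypo in all of them, without symbols of predicted genes, by the mean absolute difference of the log2 ratio, with 0 reads counted as 3. A gene's most extreme hypo region was used in each comparison. For Pdgfra that was the third place at 1 and 3 dpi and in primary neurons, and the second at 5 and 7 dpi. Cd44 was nearest to Iqgap1 (0.12), Arhgap4 (0.15) and Nipal1 (0.15), with 1 further gene at about the distance of Nipal1, and S100a4 to Cd8a (0.11), Pitpnm2 (0.13) and Olfr1282 (0.17). Fn1 was nearest to Timm17a (0.04), Nr1h3 (0.04) and Rapgef6 (0.07), and Pdgfra to Olfr1052 (0.15), Il1a (0.16) and Fermt1 (0.16). For Vim, 121 genes tied at a difference that rounds to 0, so no nearest gene could be named. The 5 values share 1 MEF library, and since 0 and 3 reads count alike, near genes can differ in reads: Rapgef6 had 3, 1, 1 and 0 reads at 1, 3, 5 and 7 dpi and 3 in primary neurons, where Fn1 had 0, 1, 1, 3 and 0.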

How the data were processed

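Groups were taken from the sample titles, and each column from the library code in its header. The hyper lists that the labels of 3, 5 and 7 dpi name carry the code of primary neurons, and the file headers were followed. The submitters' processing notes name CASAVA, Bowtie2 (version 2.1.0) and the mm10 build. Which caller made the peaks or the differential lists, and from which input, is not given in the sources used here.

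For each promoter region the authors deposited a signal per library under the name count, a log2 fold change, a p-value and a q-value. The fold enrichment in the peak lists is a ratio that the authors deposited. The peak summit tags are whole counts, per the file headers and values, and the deposited q-value column there, at least 4.02, was read as −log10 of q.

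Dividing the promoter signal by 1 factor per library and comparison gave whole reads within 0.1 for 100% of values in every column but 1 (99.953%). Reads were scaled back by these factors for ratios, with exact conditional Poisson intervals at 95% and a floor of 3 reads. The recovery and the intervals were tested on simulated data. No count model was fitted, because each group had 1 library. Genes were matched by identifier to RefSeq (21515 of 21605), and overlap meant at least 1 bp. Promoter windows, RefSeq sequences of GRCm38.p6, were at hand for 5 members. Tables were handled in pandas 2.3.3 and numpy 2.4.6, intervals came from scipy 1.17.1 and figures from matplotlib 3.10.9, under Python 3.11.15.

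Named genes were the 10 members, up to 3 genes of each other list (largest ratio among those listed one way in most comparisons), and the 3 genes nearest to each member that was hypo throughout. The members and the lists were chosen with earlier results of these data known. Alternatives covered the authors' p and q, read minimums, distance to the TSS, recentring, peak enrichment and class, overlap, floor and scaling.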

Additional observations from a re-analysis of the deposited data

Results flagged for a closer look

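Vim stood out at 5 dpi, where a region upstream of its start was listed with more reads than in MEFs, 9 against 0 or at least 5.25-fold, while the extents that overlap it at 1, 3 and 7 dpi and in primary neurons were listed with fewer, 0 against 18 each. The difference between the libraries was not tested, since each is 1 library, and 9 reads is the lowest count in a hyper list. At 5 dpi itself an overlapping extent was also listed with 0 reads against 18 in MEFs.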

How the results depend on the processing

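No paired analysis was possible because each group holds 1 library and every library carries the same replicate number. The counts of hyper and hypo members were the same at an authors' p below 0.0001 and at a q below 0.01. At a minimum of 15 reads on the higher side, hyper members numbered 0 at 1, 5 and 7 dpi and in primary neurons and 1 at 3 dpi (Cd44). With the centre of the region within 500 bp of the TSS they numbered 0 in all 5 comparisons. Hypo members numbered 4 in each comparison at 25 reads or more, and 2 in each (Cd44 and S100a4) with the centre within 500 bp. Recentring left 3 hypo members at 1, 3 and 5 dpi, 2 at 7 dpi and 1 in primary neurons, by its own construction. With intergenic peaks left out, or those beyond 10 kb, members with a peak numbered 0 at 3, 5 and 7 dpi and in primary neurons, and 8 and 6 in MEFs. At 5-fold enrichment 9 members had a MEF peak, and the other counts did not move. Shares of all genes under these cut-offs are not given here, so the counts show only how the members' numbers move. A stricter overlap, measured against the shorter interval, left 4 hypo places on a MEF peak. A floor of 1 read in place of 3 triples every bound by its construction (Acta2 at 1 dpi from at least 5.93-fold to at least 17.8-fold) and leaves ratios without a 0 as they are. Unscaled reads kept 36 of 47 ratios within their counting intervals. The 11 that left were all 11 hyper regions with 0 MEF reads (Acta2 at 1 dpi from at least 5.93-fold to at least 3.33-fold). The 18 hypo regions with 0 reads could not leave, since unscaling raises their bound and their interval has no upper limit. Depth is a limit for the hyper calls, where members' regions rest on 9 to 24 reads.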
